A study of Oryza sativa with 18 samples.

Results

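The genes of starch synthesis and sucrose cleavage were followed in young panicles of the rice photo-thermo-sensitive genic male sterile line Wuxiang S (WXS). The set was a list of 34 locus identifiers of the MSU rice annotation, chosen by enzyme class. It held 6 ADP-glucose pyrophosphorylase subunits, 10 starch synthases, 3 branching enzymes, 4 debranching enzymes, 2 phosphorylases, 2 disproportionating enzymes, 1 BT1 transporter and 6 sucrose synthases (SUS1 to SUS6). Rows for 33 of the 34 were in the table of 47919 coding genes, and 32 had enough counts to be tested. The debranching enzyme LOC_Os04g08270 was not analysed here. WXS (S) plants grew in the field at Wuhan at a daily mean temperature above 24 °C and a day longer than 12 h, and were sterile without pollen. WXS (F) plants of the same line were moved to an incubator when the panicle measured about 1 cm, were held there at about 21 °C with 12 h of light for 3 to 4 weeks, and were fertile. Panicles were taken when pollen mother cells formed (P2), at meiosis (P3) and when microspores formed (P4), which gave the groups SP2, FP2, SP3, FP3, SP4 and FP4 with 3 RNA-seq libraries each. Temperature, day length and field against incubator changed together between WXS (S) and WXS (F) and cannot be told apart. The study describes the libraries of a group as biological replicates, and whether each came from separate plants or from a pool is not given in the sources used here.

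In plant cells, sucrose that arrives through the phloem is split by sucrose synthase into fructose and UDP-glucose, and carbon that enters the plastid is turned into ADP-glucose by ADP-glucose pyrophosphorylase, an enzyme of large and small subunits. Starch synthases add the glucose of ADP-glucose to growing glucan chains, branching enzymes introduce branch points, and debranching enzymes of the isoamylase and pullulanase types trim misplaced branches. Plastidial phosphorylase and disproportionating enzyme act on short glucan chains, while the cytosolic forms work on the sugars released by starch breakdown. In cereal endosperm, a BT1 protein carries ADP-glucose from the cytosol into the plastid. Rice pollen fills with starch late in its development, after the stages sampled here, and loss of pollen starch is a mark of many male sterile lines.

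The files do not pair locus identifiers with gene symbols. Symbols are given for 11 members whose name the RefSeq gene table (assembly ASM3414082v1) holds on the same chromosome. AGPS2, SSII-1, SSII-2, SBE1 and ISA1 were paired by class and chromosome, where 1 RefSeq gene held that name. SUS1 to SUS6 and BT1 are named by the list itself. The table does not tell SUS1 and SUS4 apart by position, since both lie on chromosome 3. The other 22 are given by identifier and class. RefSeq lists the starch synthase genes GBSS1, SSI and ALK in this order on chromosome 6, where the members LOC_Os06g04200, LOC_Os06g06560 and LOC_Os06g12450 lie, and DPE1 and DPE2 in this order on chromosome 7, where LOC_Os07g43390 and LOC_Os07g46790 lie, but no table pairs these names with the identifiers.

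Library totals lay between 30577833 and 52222861 counts, and the 33 members took between 0.346% and 0.477% of them. Libraries SP2-1 and SP3-2 had the lowest mean correlations within SP2 and SP3 (r = 0.9719 and 0.9668 over genes, which are not independent). Where leaving out SP2-1 or SP3-2 changed whether a member was called between WXS (F) and WXS (S) at P2 or P3, that result is also given. The tissue was checked with locus lists of marker genes, which the files do not annotate. All 9 floral organ identity genes were expressed, with summed FPKM (read counts scaled for gene length and library depth) from 246 to 697 per library. The 3 endosperm marker genes, not all of them for storage proteins, summed to at most 1.99 FPKM. The 9 floral genes summed to 313 to 442 FPKM in SP2 against 246 to 263 in FP2, to 449 to 697 in SP3 against 269 to 288 in FP3, and to 525 to 576 in SP4 against 479 to 518 in FP4. For 10 anther genes the sums were 73.0 to 84.8 in SP2 against 48.0 to 53.9 in FP2, 100 to 133 in SP3 against 57.8 to 71.5 in FP3, and 102 to 112 in SP4 against 199 to 222 in FP4. For 4 leaf photosynthesis genes they were 22.1 to 32.8 in SP2 against 31.0 to 31.8 in FP2, 32.9 to 63.7 in SP3 against 69.0 to 73.2 in FP3, and 171 to 201 in SP4 against 376 to 405 in FP4. The anther and leaf sums followed a few abundant genes. At P4, 4 of the 10 anther genes rose and 5 fell in WXS (F), and LOC_Os03g07250 (97.1 to 111 FPKM in FP4) and LOC_Os08g03682 (62.2 to 69.0) made up most of the FP4 sum. Of the anther genes, none rose and 4 fell at P2, and 2 rose and 6 fell at P3. The shares of all tested genes at P2, P3 and P4 were 21.3%, 23.7% and 28.2% that rose and 19.5%, 19.1% and 24.4% that fell. Of the leaf genes, LOC_Os01g41710 was at 337 to 366 FPKM in FP4, while LOC_Os12g17600 was lower in WXS (F) at all 3 stages (log2 fold changes of -1.95, -1.76 and -1.15). These marker genes moved between the same groups as the members, and their part in the results below was not tested. In bulk panicles, fewer cells of a type and less RNA per cell cannot be told apart.

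WXS (F) was compared with WXS (S) within each stage, which asks whether these genes differed between fertile and sterile panicles. Most calls among the ADP-glucose pyrophosphorylase, starch synthase and disproportionating enzyme genes were lower in WXS (F) at every stage, while branching enzyme and sucrose synthase genes went in both directions. At P2, 5 members rose and 16 fell of the 32 tested (edgeR, Benjamini-Hochberg adjusted P below 0.05), beside 21.3% of all 23759 tested genes that rose, 19.5% that fell and 40.8% that did either. At P3, 6 members rose and 11 fell, beside 23.7% and 19.1% of all genes (42.8% in either direction). At P4, 4 members rose and 22 fell, beside 28.2% and 24.4% (52.6% in either direction). The median log2 fold change of the members was -0.34, -0.14 and -0.44 at P2, P3 and P4, beside 0.04, 0.04 and 0.00 over all genes. A change of at least 2-fold was called for 3 members up and 7 down at P2 (10.3% and 7.76% of all genes, 18.1% in all), 4 up and 4 down at P3 (14.9% and 6.65%, 21.6% in all), and 1 up and 7 down at P4 (15.7% and 6.78%, 22.5% in all). With library totals in place of TMM factors, which moved the all-gene median by 0.14 on the log2 scale at P2, 7 members rose and 14 fell at P2, and higher genes made up 65.2% of all calls in place of 52.2%. Without SP2-1 the count at P2 was 26 members in place of 21, and without SP3-2 the count at P3 was 22 in place of 17. Beside these counts, all 3 libraries of WXS (F) lay below all 3 of WXS (S) for 17 members at P2, 13 at P3 and 22 at P4, against 26.5%, 25.5% and 30.2% of all tested genes, and above them for 7, 9 and 4 members, against 29.1%, 31.5% and 32.5%.

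Over the stages, 8 members were lower in WXS (F) at P2, P3 and P4 alike (AGPS2, LOC_Os01g44220, LOC_Os06g06560, SSII-1, LOC_Os06g04200, LOC_Os07g22930, LOC_Os07g43390 and LOC_Os07g46790), beside 6.07% of the 22221 genes tested at all stages. Another 2, LOC_Os02g32660 and SUS4, were higher at all 3 stages, beside 9.10% of genes. A further 11 fell at 1 or 2 stages and never rose, 2 rose at 1 or 2 stages and never fell (ISA1 and SUS3), 6 went both ways (LOC_Os04g53310, LOC_Os04g33460, LOC_Os03g55090, SUS2, SUS5 and SUS6), and 3 were called at no stage (SSII-2, LOC_Os05g45720 and SUS1). The share of all genes was counted only for the patterns over all 3 stages, so the other pattern counts have no such comparison. All counts here hold for the fits with all libraries. Of the 11, LOC_Os08g09230 and LOC_Os09g29404 were called higher at P2 without SP2-1, and LOC_Os08g09230 also at P3 without SP3-2. Of the 8 lower at all stages, LOC_Os06g04200 had enough counts to be tested at P2 and P3 only through its WXS (S) libraries.

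**Figure D1:**
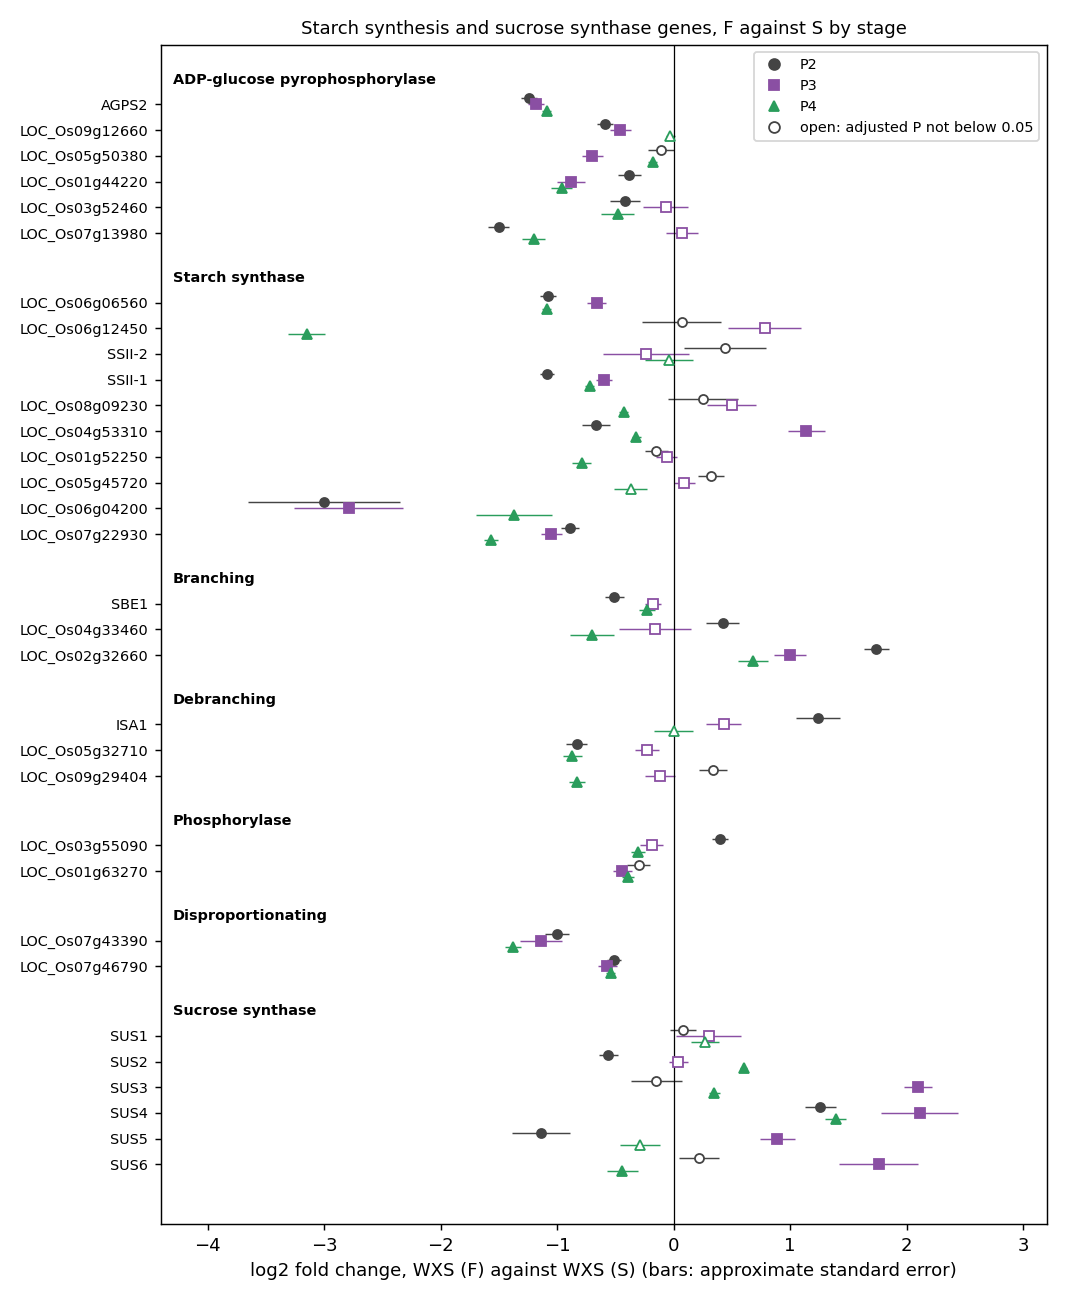
The log2 fold change of WXS (F) against WXS (S) for the 32 tested members, by enzyme class, at P2 (circles), P3 (squares) and P4 (triangles). Bars are approximate standard errors, filled symbols have an adjusted P below 0.05, and the filled symbols of 8 members lie left of 0 at all 3 stages.

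ADP-glucose pyrophosphorylase makes ADP-glucose, the glucosyl donor of starch synthesis. None of its 6 subunit genes rose in WXS (F) at any stage, and 5 fell at P2, 4 at P3 and 5 at P4. Over all genes tested at P2, P3 and P4, 21.3%, 23.7% and 28.2% rose and 19.5%, 19.1% and 24.4% fell. AGPS2 (LOC_Os08g25734, chromosome 8), a small subunit gene, was the most abundant of them, with a mean of 77.5 FPKM over all libraries. Its normalised count, given as CPM on a common library total, was 343, 378 and 384 CPM in SP2 against 152, 154 and 157 CPM in FP2. At P3 it was 411, 388 and 407 CPM in SP3 against 177, 179 and 177 CPM in FP3, and at P4 253, 254 and 255 CPM in SP4 against 122, 117 and 116 CPM in FP4. The groups did not overlap at any stage, and the libraries of each WXS (F) group lay close together. The log2 fold change of WXS (F) against WXS (S) was -1.24 ± 0.07, -1.18 ± 0.07 and -1.09 ± 0.04 at P2, P3 and P4 (± approximate standard error, n = 3 and 3, edgeR adjusted P = 6.42e-05, 8.26e-05 and 3.19e-06). AGPS2 made up 47.6% ± 0.947 (SD, n = 3) of the summed FPKM of the 6 genes in SP2 against 35.3% ± 0.278 in FP2, 48.6% ± 1.24 in SP3 against 37.6% ± 0.405 in FP3, and 45.6% ± 0.675 in SP4 against 31.1% ± 0.653 in FP4. Its share within the class was lower in every WXS (F) library than in any WXS (S) library of its stage.

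LOC_Os07g13980 (chromosome 7) fell at P2 and P4 but not at P3. It was at 49.7, 55.5 and 53 CPM in SP2 against 17.3, 19.1 and 19.1 CPM in FP2. At P3 its libraries overlapped, with 17.8, 13.2 and 17.1 CPM in SP3 against 16.1, 17.2 and 17.5 CPM in FP3. At P4 it was at 15.5, 14.4 and 15.4 CPM in SP4 against 7.09, 6.21 and 6.24 CPM in FP4, again without overlap. The log2 fold change was -1.50 ± 0.09, 0.07 ± 0.14 and -1.20 ± 0.10 at P2, P3 and P4 (edgeR adjusted P = 8.22e-05, 0.708 and 0.000112). The high value of SP2 was lost at P3 in WXS (S), where the log2 change from P2 to P3 was -1.69 ± 0.13 (adjusted P = 6.27e-05), whereas in WXS (F) the fall came between P3 and P4, at -1.34 ± 0.08 (adjusted P = 3.76e-06). LOC_Os01g44220 fell at all 3 stages, by a log2 fold change of -0.38, -0.88 and -0.96 at P2, P3 and P4, and the call at P2 was lost without FP2-1 (adjusted P = 0.0889) or FP2-2 (0.0826). LOC_Os09g12660, with a mean of 53.9 FPKM the runner-up in the class, fell at P2 and P3 (log2 fold change -0.59 and -0.46) and was at -0.03 at P4 (adjusted P = 0.61). LOC_Os05g50380 fell at P3 and P4 (-0.70 and -0.18), and without SP2-1 also at P2 (-0.28, adjusted P = 0.00197). LOC_Os03g52460, the scarcest with 2.25 FPKM, was called lower at P2 and P4 (-0.42 and -0.48), and both calls were lost when single libraries were left out (adjusted P up to 0.138 at P2 and 0.0839 at P4).

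Starch synthases elongate the glucan chains of amylose and amylopectin. With all libraries, 5 of the 10 genes fell and none rose in WXS (F) at P2. At P3 4 fell and 1 rose, and at P4 8 fell and none rose. Beside this, 19.5%, 19.1% and 24.4% of all tested genes fell and 21.3%, 23.7% and 28.2% rose. Without SP2-1, LOC_Os08g09230 and LOC_Os05g45720 were called higher at P2, and without SP3-2 LOC_Os08g09230 also at P3. LOC_Os07g22930 (chromosome 7) was the most abundant, with a mean of 30.7 FPKM. It was at 235, 227 and 221 CPM in SP2 against 114, 134 and 119 CPM in FP2. At meiosis (P3) it was at 193, 193 and 205 CPM in SP3 against 103, 85.7 and 97.9 CPM in FP3, and at P4 at 133, 132 and 133 CPM in SP4 against 40.4, 45.2 and 47.1 CPM in FP4. WXS (F) lay below WXS (S) without overlap at each stage, and the fold was largest at P4. In WXS (F) against WXS (S), the log2 fold change was -0.89 ± 0.08, -1.05 ± 0.09 and -1.57 ± 0.06 at P2, P3 and P4 (edgeR adjusted P = 0.000433, 0.000315 and 5.13e-06), and these differed between stages (interaction adjusted P = 0.000378). LOC_Os06g06560 (chromosome 6) varied little over the stages in WXS (S), with 140, 127 and 126 CPM in SP2, 131, 151 and 138 in SP3 and 139, 146 and 149 in SP4. In WXS (F) it was at 63.8, 59.7 and 60.5 CPM in FP2, 86.4, 91.3 and 89.2 in FP3 and 67.1, 69.1 and 66.6 in FP4. None of these WXS (F) libraries reached the lowest WXS (S) library. On the log2 scale the change was -1.08 ± 0.07 (adjusted P = 0.000152) at P2, -0.66 ± 0.08 (adjusted P = 0.00123) at P3 and -1.09 ± 0.04 (adjusted P = 4.96e-06) at P4.

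SSII-1 (LOC_Os10g30156, chromosome 10), a soluble starch synthase of the SSII type, was at 243, 258 and 250 CPM in SP2 against 115, 116 and 119 CPM in FP2. P3 values were 205, 194 and 216 CPM in SP3 against 135, 134 and 137 CPM in FP3, and P4 values 125, 122 and 131 CPM in SP4 against 76.6, 76.1 and 74.8 CPM in FP4. The distance between the groups was largest at P2, where the log2 fold change was -1.09 ± 0.06 (adjusted P = 6.14e-05). It was -0.60 ± 0.07 (adjusted P = 0.00101) at P3 and -0.72 ± 0.04 (adjusted P = 2.39e-05) at P4. LOC_Os06g04200 (chromosome 6) was near the lower limit of detection, with 2 to 87 counts per library. Its values were 0.578, 1.03 and 1.71 CPM in SP2 against 0.0439, 0.149 and 0.212 CPM in FP2, 1.54, 1.21 and 1.34 CPM in SP3 against 0.305, 0.0875 and 0.191 CPM in FP3, and 1.54, 1.61 and 2.12 CPM in SP4 against 0.864, 0.409 and 0.749 CPM in FP4. All libraries of WXS (F) lay below those of WXS (S) at each stage, and the log2 fold change was -3.0 ± 0.65, -2.79 ± 0.47 and -1.37 ± 0.33 at P2, P3 and P4 (edgeR adjusted P = 0.0122, 0.00423 and 0.0137). With so few counts the size of these changes is imprecise. At P2 and P3 it reached 10 counts in 3 libraries only through WXS (S). It had 24, 49 and 84 counts in SP2 against 2, 6 and 10 in FP2, and 75, 38 and 64 in SP3 against 15, 4 and 8 in FP3. A gene as scarce in WXS (S) as in these WXS (F) groups would not have been tested. The separation at P4 held in CPM but not in FPKM, with 0.382, 0.711 and 0.592 in SP4 against 0.597, 0.124 and 0.309 in FP4.

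LOC_Os06g12450 (chromosome 6) was low in every group but SP4. It was at 0.723, 1.25 and 1.63 CPM in SP2, 1.34, 1.21 and 1.18 in FP2, 0.676, 0.7 and 0.546 in SP3, 0.853, 1.18 and 1.29 in FP3 and 1.38, 1.59 and 1.25 in FP4. In SP4 it reached 13.1, 11.1 and 13.6 CPM, a log2 rise of 4.33 ± 0.31 (adjusted P = 2.92e-05) over SP3 in WXS (S). The log2 fold change of WXS (F) against WXS (S) at P4 was -3.15 ± 0.16 (adjusted P = 1.39e-05), among the members the one of greatest size at that stage. At P2 and P3 it was 0.07 ± 0.34 and 0.78 ± 0.31 (adjusted P = 0.894 and 0.0813). LOC_Os04g53310 (chromosome 4), annotated by the study as a homolog of soluble starch synthase 3, changed direction between stages. It was at 275, 212 and 205 CPM in SP2 against 139, 148 and 146 CPM in FP2. At P3 the order was turned, with 86.8, 125 and 83.5 CPM in SP3 against 217, 223 and 211 CPM in FP3, and at P4 it was at 148, 135 and 141 CPM in SP4 against 114, 112 and 111 CPM in FP4. The groups did not overlap at any stage. Expressed as log2 this was -0.67 ± 0.12 (adjusted P = 0.00686) at P2, 1.14 ± 0.16 (adjusted P = 0.00216) at P3 and -0.32 ± 0.04 (adjusted P = 0.00132) at P4, and it was 1.27 at P3 without SP3-2 and -0.57 at P2 without SP2-1, the libraries of highest value in SP3 and SP2. The remaining 4 starch synthases changed less than 2-fold at every stage. Of these, LOC_Os01g52250 and LOC_Os08g09230 fell at P4 (-0.79 and -0.43), and SSII-2 and LOC_Os05g45720 were called at no stage, the latter only without SP2-1 at P2 (0.34, adjusted P = 0.0399). LOC_Os08g09230 was at 77.6 CPM in SP2-1 and 36.4 and 38.4 in the other SP2 libraries, and at 56.1 CPM in SP3-2 and 33.8 and 34.4 in the other SP3 libraries. Without these libraries it was called higher in WXS (F) at P2 (log2 fold change 0.65, adjusted P = 0.00117) and at P3 (0.70, adjusted P = 0.000643).

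**Figure D2:**
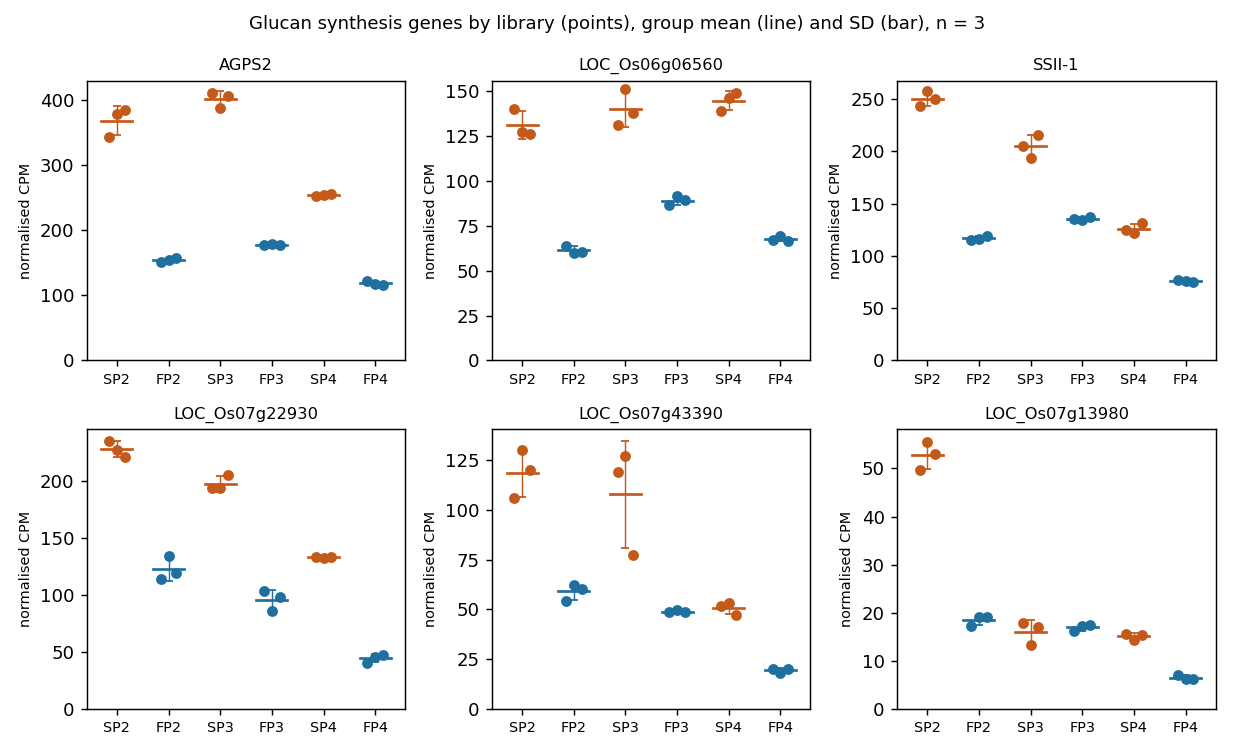
Normalised counts (CPM) of 6 members in each library of SP2 to FP4, from the ADP-glucose pyrophosphorylase, starch synthase and disproportionating enzyme classes. Points are libraries, lines group means and bars SD (n = 3, orange WXS (S), blue WXS (F)). In 5 of the panels WXS (F) lies below WXS (S) at every stage, and LOC_Os07g13980 overlaps at P3.

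Branching enzymes set the branch points of amylopectin. The 3 genes behaved differently from one another. LOC_Os02g32660 (chromosome 2) was higher in WXS (F) at all stages. It was at 5.71, 6.44 and 5.39 CPM in SP2 against 18.6, 20.6 and 18.9 CPM in FP2. At P3 it was at 9.01, 7.44 and 9.81 CPM in SP3 against 17, 19.3 and 16.3 CPM in FP3, and at P4 at 12.4, 9.78 and 9.37 CPM in SP4 against 17.4, 17.4 and 15.6 CPM in FP4. The groups did not overlap, and the log2 fold change was 1.74 ± 0.11 (adjusted P = 0.000134) at P2, 1.00 ± 0.14 (adjusted P = 0.00227) at P3 and 0.68 ± 0.13 (adjusted P = 0.00481) at P4. The WXS (F) group means were 19.4, 17.5 and 16.8 CPM, and in WXS (S) they were 5.85 at P2, 8.76 at P3 and 10.5 CPM at P4. It was nevertheless the scarcest of the 3, with a mean of 2.69 FPKM, and made up 2.82% ± 0.455 (SD, n = 3) of the class FPKM in SP2 against 9.69% ± 0.307 in FP2. LOC_Os04g33460 (chromosome 4), the most abundant at 20.3 FPKM, was at 55.3, 44.4 and 45.6 CPM in SP2 against 55.7, 73.7 and 63.8 CPM in FP2, 44.5, 101 and 49.8 CPM in SP3 against 53.5, 64.2 and 57.7 CPM in FP3, and 51.5, 32.2 and 43.7 CPM in SP4 against 28.4, 21.6 and 28 CPM in FP4. The P2 libraries of WXS (F) lay just above those of WXS (S), the P3 groups overlapped with SP3-2 at the top, and the P4 libraries of WXS (F) lay below. As a log2 fold change this was 0.42 ± 0.14 (adjusted P = 0.0489) at P2, -0.16 ± 0.31 (adjusted P = 0.717) at P3 and -0.70 ± 0.19 (adjusted P = 0.0217) at P4. Without SP3-2 the P3 value was 0.23 and was not called either (adjusted P = 0.115). The calls at P2 and at P4 were each lost when single libraries were left out (adjusted P up to 0.141 and 0.071). SBE1 (LOC_Os06g51084, chromosome 6) fell at P2 (-0.51 ± 0.08) and P4 (-0.23 ± 0.07), the latter not without SP4-1, FP4-2 or FP4-3 (adjusted P up to 0.0862), and at P3 it was called without SP3-2 (-0.28, adjusted P = 0.0101).

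Isoamylase-type debranching enzymes remove misplaced branches. ISA1 (LOC_Os08g40930, chromosome 8) rose in WXS (F) at P2 and differed less later. It was at 6.6, 9.12 and 5.62 CPM in SP2 against 15.8, 17 and 17.1 CPM in FP2. At meiosis (P3) it was at 10.1, 10 and 10.6 CPM in SP3 against 16.7, 12 and 12.7 CPM in FP3, and at P4 at 23.2, 16.3 and 15.8 CPM in SP4 against 20.2, 16.6 and 18.3 CPM in FP4. In CPM the groups stood apart at P2 and P3 and overlapped at P4. In FPKM they also overlapped at P3, with 1.95, 1.54 and 1.9 in SP3 against 2.71, 2 and 1.88 in FP3. The log2 fold change was 1.24 ± 0.19 (adjusted P = 0.00322) at P2, 0.43 ± 0.15 (adjusted P = 0.0648) at P3 and 0.00 ± 0.17 (adjusted P = 0.986) at P4. LOC_Os09g29404 (chromosome 9), with 5.74 FPKM the most abundant of the 3 measured, was at 43.2, 32.5 and 34.3 CPM in SP2 against 44.6, 47 and 46.3 CPM in FP2, 39.6, 46.7 and 33.4 CPM in SP3 against 36.9, 37.3 and 36.4 CPM in FP3, and 49.6, 50.9 and 53.1 CPM in SP4 against 26.9, 27.6 and 31.4 CPM in FP4. Its log2 fold change was 0.34 ± 0.12, -0.12 ± 0.13 and -0.83 ± 0.07 at P2, P3 and P4 (edgeR adjusted P = 0.0703, 0.519 and 0.000156). The FP2 libraries lay above those of SP2, of which SP2-1 was the highest, and without SP2-1 the difference at P2 was called (0.42, adjusted P = 0.00313). At P4 all FP4 libraries lay below those of SP4. LOC_Os05g32710 fell at P2 and P4 (-0.83 ± 0.09 and -0.87 ± 0.08), and at P3 only without SP3-2 (-0.31, adjusted P = 0.0348).

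Phosphorylases add or remove single glucose units at chain ends. LOC_Os03g55090 (chromosome 3) was the more abundant of the 2, with 25.3 FPKM. It was at 159, 160 and 161 CPM in SP2 against 193, 227 and 206 CPM in FP2, 173, 166 and 196 CPM in SP3 against 147, 174 and 149 CPM in FP3, and 100, 101 and 102 CPM in SP4 against 88.3, 77.5 and 77.8 CPM in FP4. WXS (F) was above WXS (S) at P2 and below it at P4, without overlap at either stage. In WXS (F) against WXS (S), the log2 fold change was 0.40 ± 0.07 (adjusted P = 0.00701) at P2, -0.19 ± 0.10 (adjusted P = 0.188) at P3 and -0.31 ± 0.06 (adjusted P = 0.00566) at P4, and at P3 it was called without SP3-2 (-0.31, adjusted P = 0.0475). LOC_Os01g63270 fell at P3 and P4 (-0.44 ± 0.08 and -0.39 ± 0.05), and at P2 without SP2-1 (-0.44, adjusted P = 0.00548). Plastidial disproportionating enzyme moves short glucans from chain to chain, while the cytosolic form works on sugars released by starch breakdown. Both genes of this class fell at all 3 stages, beside 6.07% of the genes tested at all stages. LOC_Os07g43390, the more abundant at 19.6 FPKM, was at 106, 130 and 120 CPM in SP2 against 54.4, 62.3 and 60.1 CPM in FP2. P3 values were 119, 127 and 77.1 CPM in SP3 against 48.7, 49.4 and 48.5 CPM in FP3, and P4 values 51.8, 53.4 and 47.2 CPM in SP4 against 20, 18.2 and 20 CPM in FP4. There was no overlap at any stage, although SP3-3 lay well below the other SP3 libraries. On the log2 scale the change was -1.0 ± 0.10 (adjusted P = 0.000534) at P2, -1.14 ± 0.18 (adjusted P = 0.0035) at P3 and -1.38 ± 0.07 (adjusted P = 1.91e-05) at P4. LOC_Os07g46790 had log2 fold changes of -0.51, -0.57 and -0.54, and a difference between stages was not called (interaction adjusted P = 0.94).

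BT1 (LOC_Os02g10800, chromosome 2), the only transporter of the set, was hardly detected. The libraries of SP2 had 0, 6 and 11 counts and those of SP3 had 8, 0 and 2, while all 3 of SP4 had 0. On the WXS (F) side FP2 gave 0, 0 and 3 counts, FP3 gave 8, 0 and 7 and FP4 gave 10, 0 and 9, which made 64 counts over the 18 libraries. It did not reach 10 counts in 3 libraries of any fit and was not tested. A count of 0 allows up to 3 counts, which is 0.0609 to 0.0954 CPM at the depth of these libraries, counting error only.

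**Figure D3:**
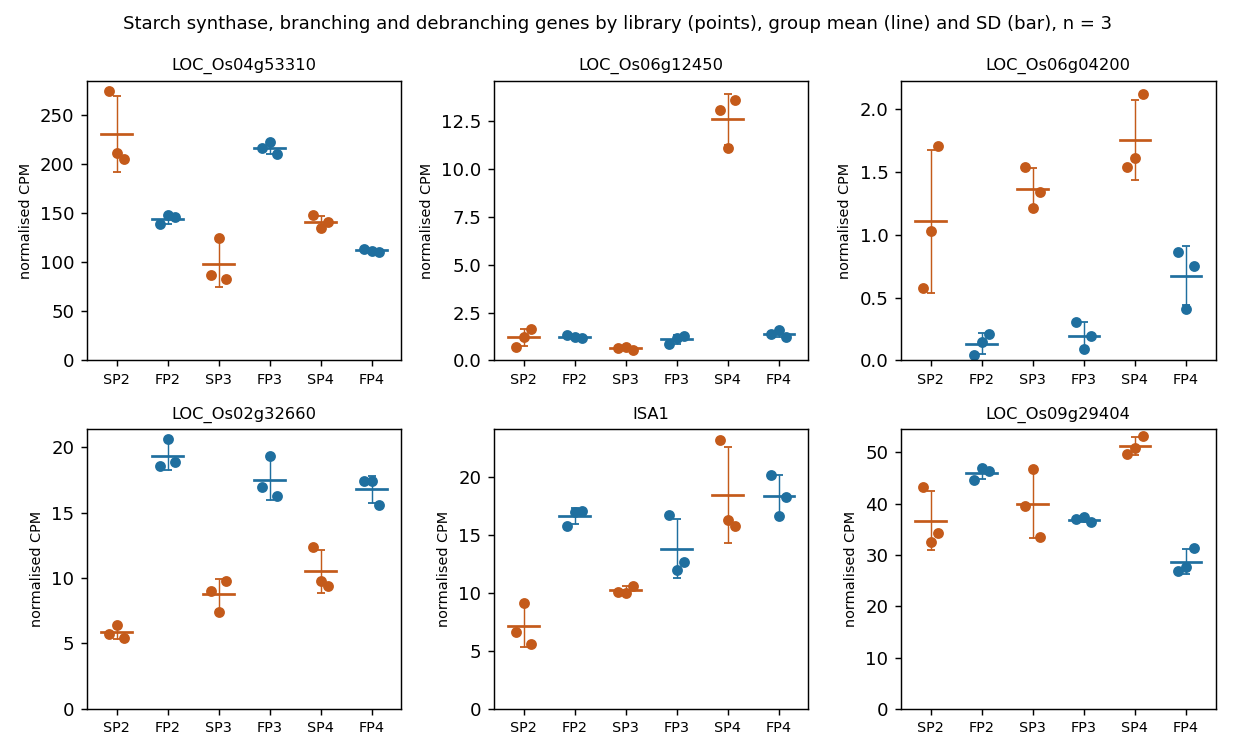
Normalised CPM of 6 members per library, with points for libraries, lines for group means and bars for SD (n = 3, orange WXS (S), blue WXS (F)). LOC_Os04g53310 is lower in WXS (F) at P2 and P4 and higher at P3, LOC_Os06g12450 is high only in SP4, and LOC_Os02g32660 is higher in WXS (F) at all stages.

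Sucrose synthase splits sucrose and so feeds UDP-glucose into starch, cell wall and energy metabolism. Of its 6 genes, 1 rose and 2 fell in WXS (F) at P2, 4 rose and none fell at P3, and 3 rose and 1 fell at P4, where over all genes 21.3%, 23.7% and 28.2% rose and 19.5%, 19.1% and 24.4% fell. SUS2 and SUS1 were the most abundant members of the whole set, at 201 and 182 FPKM on average. The nearest member of another class was AGPS2 with 77.5 FPKM. SUS1 and SUS2 together took most of the class FPKM, SUS1 35.8% ± 4.52 (SD, n = 3) and SUS2 58.4% ± 5.12 in SP2, and 50.0% ± 2.85 and 42.2% ± 2.77 in FP4. How reads shared between paralogues were counted is not given in the sources used here, so values of closely similar family members are uncertain.

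SUS2 (LOC_Os06g09450, chromosome 6) was nearly constant in WXS (S), with 917, 1070 and 1070 CPM in SP2, 1030, 967 and 967 in SP3 and 985, 987 and 985 in SP4. In WXS (F) it was at 700, 670 and 685 CPM in FP2, 1040, 1010 and 1010 in FP3 and 1500, 1500 and 1460 in FP4. WXS (F) thus lay below WXS (S) at P2, overlapped it at P3 and lay above it at P4. Expressed as log2 this was -0.56 ± 0.08 (adjusted P = 0.00234) at P2, 0.04 ± 0.08 (adjusted P = 0.728) at P3 and 0.60 ± 0.03 (adjusted P = 1.5e-05) at P4. In WXS (F) the log2 rise was 0.51 ± 0.03 (adjusted P = 2.21e-06) from P2 to P3 and 0.58 ± 0.03 (adjusted P = 1.13e-06) from P3 to P4, whereas in WXS (S) both steps were near 0 (-0.02 ± 0.08 and 0.03 ± 0.08). SUS1 (LOC_Os03g28330, chromosome 3) was called at no stage between WXS (F) and WXS (S), with log2 fold changes of 0.08 ± 0.11, 0.30 ± 0.28 and 0.27 ± 0.12. At P3 it was at 714 CPM in SP3-2 but at 413 and 331 in SP3-1 and SP3-3, and without SP3-2 it was called higher in WXS (F) (0.61, adjusted P = 0.00755). It rose from P3 to P4 in both, by 1.55 ± 0.26 (adjusted P = 0.00206) in WXS (S) and 1.50 ± 0.10 (adjusted P = 4.82e-06) in WXS (F).

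SUS4 (LOC_Os03g22120, chromosome 3) was higher in WXS (F) at all 3 stages. It was at 90.7, 68.4 and 68.3 CPM in SP2 against 173, 186 and 184 CPM in FP2. At meiosis (P3) it was at 59.5, 91.7 and 34.9 CPM in SP3 against 267, 283 and 253 CPM in FP3, and at P4 at 61.1, 50.9 and 60.6 CPM in SP4 against 159, 138 and 154 CPM in FP4. The groups were far apart at each stage, and the SP3 libraries were the most scattered. As a log2 fold change this was 1.26 ± 0.13 (adjusted P = 0.000662) at P2, 2.11 ± 0.33 (adjusted P = 0.00308) at P3 and 1.39 ± 0.09 (adjusted P = 4.23e-05) at P4, and 2.43 at P3 without SP3-2. The difference between stages was not called (interaction adjusted P = 0.0891). SUS4 made up 4.34% ± 0.733 (SD, n = 3) of the class FPKM in SP2 against 11.4% ± 0.662 in FP2, 3.56% ± 1.07 in SP3 against 12.4% ± 0.489 in FP3, and 2.05% ± 0.0743 in SP4 against 4.04% ± 0.0349 in FP4.

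SUS3 (LOC_Os07g42490, chromosome 7) rose over the stages by the widest span of the tested members, 29.2-fold from its lowest group mean (FP2) to its highest (FP4). It was at 2.14, 2.53 and 2.77 CPM in SP2 against 2.3, 1.78 and 2.54 CPM in FP2. P3 values were 4.41, 4.51 and 4.2 CPM in SP3 against 20.2, 18.7 and 17.5 CPM in FP3, and P4 values 49.8, 49.9 and 53.2 CPM in SP4 against 61.8, 66.3 and 65.5 CPM in FP4. The groups overlapped at P2, were far apart at P3 and stood close but apart at P4. The log2 fold change was -0.15 ± 0.22 (adjusted P = 0.621) at P2, 2.10 ± 0.12 (adjusted P = 6.49e-05) at P3 and 0.35 ± 0.05 (adjusted P = 0.00133) at P4. In WXS (F) the larger step was from P2 to P3 (log2 change 3.02 ± 0.12, and 1.82 ± 0.11 from P3 to P4), while in WXS (S) it was from P3 to P4 (3.57 ± 0.12, after 0.84 ± 0.11 from P2 to P3).

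SUS5 (LOC_Os04g24430, chromosome 4) and SUS6 (LOC_Os02g58480, chromosome 2) shared with SUS3 the higher value in WXS (F) at P3. SUS5 was at 6.6, 8.8 and 9.99 CPM in SP2 against 3.03, 3.44 and 4.91 CPM in FP2, 9.71, 8.24 and 6.91 CPM in SP3 against 14.6, 15.3 and 16.3 CPM in FP3, and 30.4, 27.8 and 23.2 CPM in SP4 against 17.4, 25.7 and 22.8 CPM in FP4. In CPM it was lower in WXS (F) at P2, higher at P3, and overlapping at P4. The FPKM values of SUS5 overlapped at P3, with 4.41, 2.76 and 3.07 in SP3 against 3.4, 4.02 and 6.25 in FP3. In WXS (F) against WXS (S), the log2 fold change was -1.14 ± 0.25 (adjusted P = 0.0119) at P2, 0.89 ± 0.15 (adjusted P = 0.0045) at P3 and -0.29 ± 0.17 (adjusted P = 0.188) at P4. SUS6 was at 4.09, 4.3 and 4.09 CPM in SP2 against 4.03, 5.1 and 5.31 CPM in FP2, 7.05, 9.92 and 3.7 CPM in SP3 against 24.5, 21.8 and 23.6 CPM in FP3, and 50.8, 36.4 and 42.1 CPM in SP4 against 33, 29.4 and 32.1 CPM in FP4. Only at P3 did WXS (F) lie above WXS (S) throughout, and at P4 it lay below. On the log2 scale the change was 0.22 ± 0.17 (adjusted P = 0.331) at P2, 1.76 ± 0.34 (adjusted P = 0.00667) at P3 and -0.44 ± 0.13 (adjusted P = 0.0252) at P4. The P4 call was lost without SP4-3, FP4-1, FP4-2 or FP4-3 (adjusted P 0.052 to 0.093). Without SP3-2, the highest SP3 library, the P3 value of SUS6 was 2.04 (adjusted P = 0.00297).

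**Figure D4:**
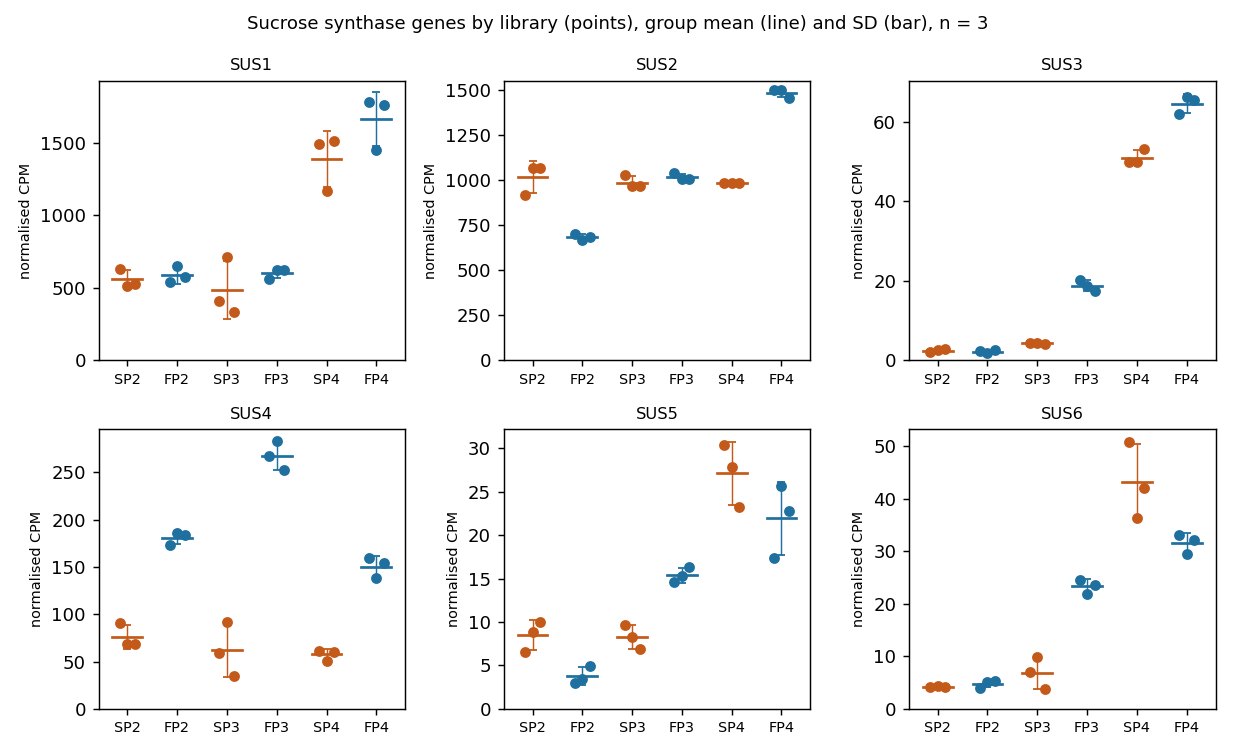
Normalised CPM of SUS1 to SUS6 per library, with points for libraries, lines for group means and bars for SD (n = 3, orange WXS (S), blue WXS (F)). SUS4 is higher in WXS (F) at every stage, SUS3, SUS5 and SUS6 are higher in WXS (F) at P3, and SUS2 turns from lower at P2 to higher at P4.

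Summed per class as FPKM, which is per length and allows genes to be added, the ADP-glucose pyrophosphorylase genes were at 218 to 274 in SP2 against 137 to 139 in FP2, at 210 to 297 in SP3 against 136 to 147 in FP3, and at 162 to 173 in SP4 against 106 to 120 in FP4. The starch synthase sums were 167 to 172 in SP2 against 97.1 to 102 in FP2, 125 to 155 in SP3 against 103 to 109 in FP3, and 119 to 128 in SP4 against 62.2 to 71.2 in FP4. Disproportionating enzyme sums were 52.8 to 64.8 in SP2 against 31.8 to 35.2 in FP2, 46.3 to 57.4 in SP3 against 23.1 to 27.1 in FP3, and 30.6 to 32.4 in SP4 against 16.2 to 19.4 in FP4. In these 3 classes no WXS (F) library reached a WXS (S) library of its stage. The branching enzyme sums of WXS (F) and WXS (S) overlapped at every stage. Those of debranching enzymes and phosphorylases overlapped at P2 and P3 and were lower in WXS (F) at P4, with 9.26 to 10.3 in FP4 and 15.1 to 15.7 in SP4 for debranching enzymes and 24.4 to 28.5 in FP4 and 33.4 to 34.5 in SP4 for phosphorylases. Sucrose synthase sums were 319 to 366 in SP2 against 292 to 311 in FP2, but 299 to 332 in SP3 against 368 to 387 in FP3, and 456 to 546 in SP4 against 644 to 732 in FP4. The sucrose synthase sum was thus lower in WXS (F) at P2 and higher at P3 and P4, and it was higher at P4 than at P2 in both conditions. No test was made on these sums, in which the abundant genes weigh most.

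**Figure D5:**
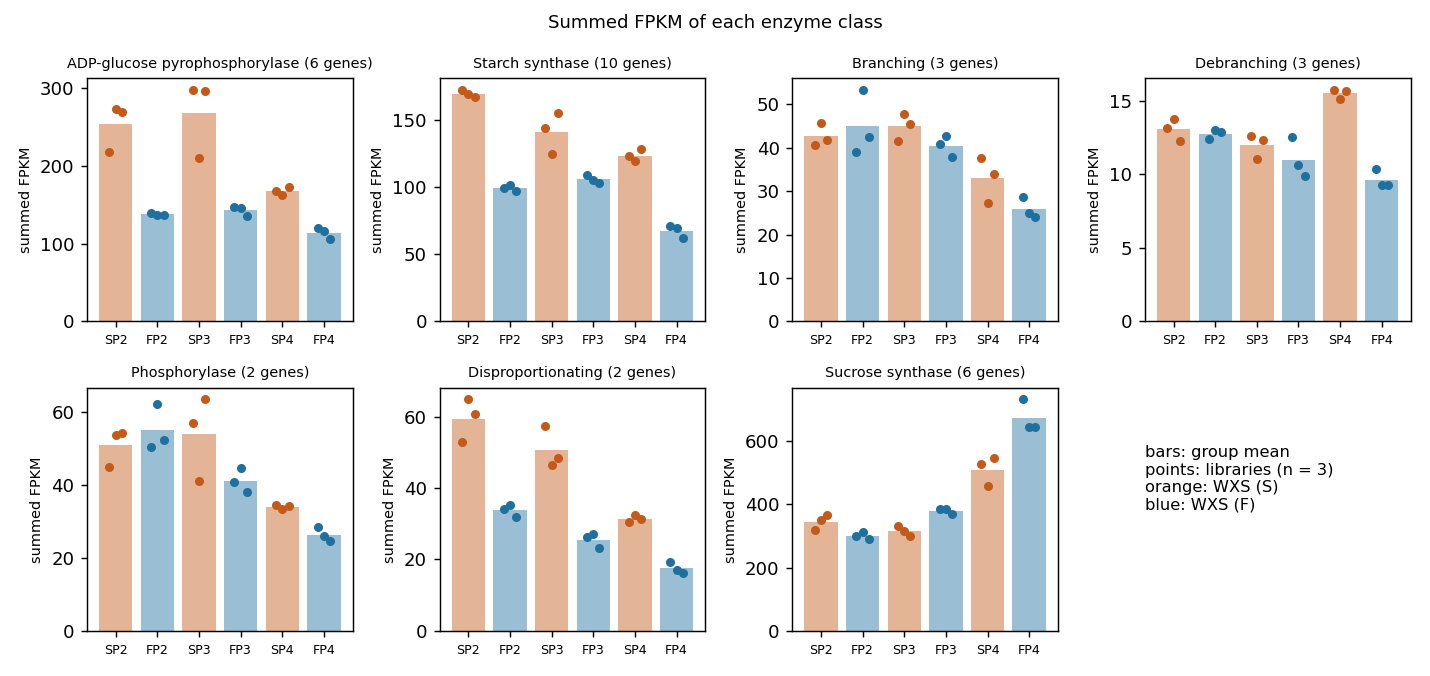
Summed FPKM of the measured genes of each enzyme class, with bars for group means and points for libraries (n = 3, orange WXS (S), blue WXS (F)). ADP-glucose pyrophosphorylase, starch synthase and disproportionating enzyme sums are lower in WXS (F) at all stages, and sucrose synthase sums reach 644 to 732 in FP4.

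The stages were compared within each condition, where the steps from P2 to P3 and from P3 to P4 share the P3 libraries. In WXS (S), 5 members rose and 5 fell from P2 to P3 (9.43% and 7.72% of 24625 genes rose and fell, 17.1% in all), and 10 rose and 8 fell from P3 to P4 (21.1% and 17.6%, 38.8% in all). In WXS (F), 10 rose and 7 fell from P2 to P3 (27.2% and 24.4% of 25897 genes, 51.6% in all), and 8 rose and 17 fell from P3 to P4 (25.0% and 24.3%, 49.3% in all). Changes of at least 2-fold were called for 1 member up and 2 down from P2 to P3 in WXS (S) (5.08% and 3.45% of genes, 8.53% in all), and for 6 up and 1 down from P3 to P4 (12.2% and 6.83%, 19.1% in all). In WXS (F) they were called for 3 up and 0 down from P2 to P3 (13.0% and 6.82%, 19.8% in all), and for 3 up and 4 down from P3 to P4 (11.9% and 6.31%, 18.3% in all). Sucrose synthases made up 5 of the 10 that rose from P2 to P3 in WXS (F) and 5 of the 8 that rose from P3 to P4. Starch synthases made up 6 and ADP-glucose pyrophosphorylase subunits 4 of the 17 that fell from P3 to P4 in WXS (F). Among these, the log2 change was -1.07 for LOC_Os07g22930, -0.80 for SSII-1, -0.91 for LOC_Os04g53310, -1.34 for LOC_Os07g13980 and -0.55 for AGPS2. In WXS (S) the log2 change from P3 to P4 was -0.54 for LOC_Os07g22930, -0.67 for SSII-1 and -0.63 for AGPS2, and LOC_Os07g13980 was at -0.06 (adjusted P = 0.75). LOC_Os01g44220 rose from P2 to P3 in both, by 1.43 ± 0.10 (adjusted P = 2.97e-05) in WXS (S) and 0.86 ± 0.11 (adjusted P = 0.000286) in WXS (F).

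With all 18 libraries in 1 fit and the stage as covariate, 4 members were higher and 16 lower in WXS (F), beside 24.8% and 21.4% of 27233 genes (46.2% in either direction). A 2-fold change was called for 2 up and 4 down, beside 13.5% and 5.83% (19.3% in either direction). The 4 were LOC_Os02g32660 (log2 fold change 1.13 ± 0.14), ISA1 (0.55 ± 0.16), SUS3 (0.76 ± 0.26) and SUS4 (1.58 ± 0.16), and the call of SUS3 was lost without SP3-1, SP3-2 or SP3-3 (adjusted P 0.0557 to 0.0598). All 6 ADP-glucose pyrophosphorylase subunit genes were among the 16, from -0.33 for LOC_Os03g52460 to -1.18 for AGPS2. The test of the stage by fertility interaction called 21 of the 32 members, beside 38.2% of all genes. It called 4 of 6 ADP-glucose pyrophosphorylase subunits, 7 of 10 starch synthases, 2 of 3 branching enzymes, all 3 measured debranching enzymes, 1 of 2 phosphorylases, neither disproportionating enzyme and 4 of 6 sucrose synthases.

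Other genes of sucrose and starch metabolism were taken from a list of 26 loci of sucrose transporters, sucrose phosphate synthases, UDP-glucose pyrophosphorylases, plastidial phosphoglucomutase, glucose 6-phosphate translocator, glucan water dikinases and hexokinases. Of those tested, 6 of 23 rose and 4 fell in WXS (F) at P2, 6 of 24 rose and 3 fell at P3, and 6 of 23 rose and 2 fell at P4. Over all genes tested 21.3%, 23.7% and 28.2% rose and 19.5%, 19.1% and 24.4% fell at these stages. The hexokinases, which phosphorylate the hexoses released from sucrose, changed at least 2-fold for LOC_Os05g45590 (1.02 ± 0.21 at P2) and LOC_Os01g71320 (1.32 ± 0.13 at P2). LOC_Os05g09500, a further hexokinase, went from -1.97 ± 0.20 at P2 to 0.74 ± 0.20 at P3 and 1.47 ± 0.17 at P4. The sucrose transporter LOC_Os03g07480 was higher in WXS (F) at P3 (1.44 ± 0.12), with 7.90, 9.32 and 9.45 FPKM in FP3 and 3.35, 3.02 and 3.92 FPKM in SP3, and was at 0.14 ± 0.16 and 0.03 ± 0.05 at P2 and P4, where it was not called. The UDP-glucose pyrophosphorylase LOC_Os02g02560, an enzyme that interconverts UDP-glucose and glucose 1-phosphate, was lower in WXS (F) at P3 (-1.98 ± 0.27) and P4 (-1.33 ± 0.23), with at most 2.55 FPKM in any library.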

How the data were processed

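RNA was measured in 18 libraries of young WXS panicles, 3 for each combination of WXS (S) or WXS (F) with P2, P3 or P4, as the labels give them. Per the labels and methods, libraries were depleted of ribosomal RNA and directional, and the authors mapped reads with HISAT2 to the MSU v7.0 rice genome and used StringTie 1.3.1. The counting tool and its treatment of reads with several positions are not given in the sources used here. The deposited gene counts are whole numbers without normalization, and the deposited FPKM values are the authors' own. All value columns matched a library (0 unmatched). The tables of circRNAs and lncRNAs were not used here.

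The quasi-likelihood test in edgeR 4.0.16 was applied to the counts (R 4.3.3, limma 3.58.1), with TMM normalization, no block, at least 10 counts in at least 3 libraries of the fit, and Benjamini-Hochberg adjustment over all genes. A gene was called at an adjusted P below 0.05. WXS (F) was compared with WXS (S) in the 6 libraries of each stage, stages in the 9 libraries of each condition, and both together in 18 libraries with stage as covariate or with an interaction. Standard errors are approximate, from the log2 fold change and the test statistic. CPM values are counts scaled to a common library total with TMM factors over the 18 libraries. The code of the fits was also run on simulated counts drawn from its own model, which cannot show that the calls in these groups are sound. Alternatives were DESeq2 1.42.0, no TMM factors, no filter, 1 joint fit, a replicate block, removal of genes above 1% of any library, stricter thresholds, and each replicate left out. Leaving out SP2-1 and SP3-2 together was chosen after seeing the data.

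The members and lists were chosen with earlier results of these data known. Values per library are given for members called with at least a 2-fold change between WXS (F) and WXS (S) at a stage or over stages, or of at least 2-fold between stages in the interaction, and for the most abundant member of each class. Pathway genes are named where a call reached 2-fold. Genes outside these rules that are named were chosen after their values were seen. Figures were drawn with matplotlib 3.10.9 in Python 3.11.15.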

Additional observations from a re-analysis of the deposited data

Results flagged for a closer look

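In 21 members the difference between WXS (F) and WXS (S) was itself unequal over the stages in the edgeR test of the stage by fertility interaction, beside 38.2% of all tested genes. The values below are the log2 fold changes of WXS (F) against WXS (S) at P2, P3 and P4, from the fits within stages, with the adjusted P of the interaction in brackets.

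Among sucrose synthases they were -0.56, 0.04 and 0.60 (adjusted P = 3.24e-07) for SUS2, -0.15, 2.10 and 0.35 (adjusted P = 1.33e-07) for SUS3, -1.14, 0.89 and -0.29 (adjusted P = 0.00019) for SUS5 and 0.22, 1.76 and -0.44 (adjusted P = 0.000328) for SUS6. SUS2 turned from lower at P2 to higher at P4, SUS5 and SUS6 were each called in opposite directions at different stages, and SUS3 was called higher at P3 and P4 only.

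Among starch synthases they were -1.08, -0.66 and -1.09 (adjusted P = 0.00103) for LOC_Os06g06560, 0.07, 0.78 and -3.15 (adjusted P = 1.51e-06) for LOC_Os06g12450, -1.09, -0.60 and -0.72 (adjusted P = 0.000107) for SSII-1 and -0.67, 1.14 and -0.32 (adjusted P = 3.94e-06) for LOC_Os04g53310. They were -0.15, -0.06 and -0.79 (adjusted P = 0.000461) for LOC_Os01g52250, 0.32, 0.09 and -0.37 (adjusted P = 0.0115) for LOC_Os05g45720 and -0.89, -1.05 and -1.57 (adjusted P = 0.000378) for LOC_Os07g22930. With all libraries, LOC_Os04g53310 was the only starch synthase called in both directions, and LOC_Os05g45720 was called at no single stage. LOC_Os08g09230, lower at P4 (-0.43), was called higher at P2 without SP2-1 (0.65) and at P3 without SP3-2 (0.70).

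For ADP-glucose pyrophosphorylase subunits they were -0.59, -0.46 and -0.03 (adjusted P = 0.000749) for LOC_Os09g12660, -0.11, -0.70 and -0.18 (adjusted P = 0.0042) for LOC_Os05g50380, -0.38, -0.88 and -0.96 (adjusted P = 0.0117) for LOC_Os01g44220 and -1.50, 0.07 and -1.20 (adjusted P = 1.67e-06) for LOC_Os07g13980. For branching enzymes they were -0.51, -0.18 and -0.23 (adjusted P = 0.0259) for SBE1 and 1.74, 1.00 and 0.68 (adjusted P = 0.000942) for LOC_Os02g32660, and the call of SBE1 was lost when each of 4 single libraries was left out. For debranching enzymes they were 1.24, 0.43 and 0.00 (adjusted P = 0.00446) for ISA1, -0.83, -0.23 and -0.87 (adjusted P = 0.000327) for LOC_Os05g32710 and 0.34, -0.12 and -0.83 (adjusted P = 0.000167) for LOC_Os09g29404. For the phosphorylase they were 0.40, -0.19 and -0.31 (adjusted P = 0.000487) for LOC_Os03g55090.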

How the results depend on the processing

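The 26 calls of at least 2-fold between WXS (F) and WXS (S) at a stage kept adjusted P below 0.05 and their sign in every alternative in which they were refitted. At P2 some changes fell below 2-fold there. Without TMM factors the log2 fold changes were -0.94 for LOC_Os06g06560, -0.95 for SSII-1 and -0.86 for LOC_Os07g43390, and without FP2-1 they were -0.94 for LOC_Os07g43390 and -0.99 for SUS5. LOC_Os07g43390 was also at -0.94 without SP2-2. Counts of called members for WXS (F) against WXS (S) at P2, P3 and P4, for P3 against P2 and P4 against P3 in WXS (S), for the same steps in WXS (F), over the stages, and for the interaction were 21, 17, 26, 10, 18, 17, 25, 20 and 21. When a change of at least 2-fold was also required they were 10, 8, 8, 3, 7, 3, 7, 6 and 10, and at the stricter adjusted P below 0.01 with the same fold they were 8, 8, 7, 3, 7, 3, 6, 6 and 10. These fell because the rule asks for more. When each replicate was left out in turn the counts ranged from 18 to 26, 17 to 22, 23 to 27, 7 to 11, 16 to 21, 15 to 19, 21 to 25, 19 to 20 and 20 to 25. Deviations of same-numbered libraries from their group means correlated at -0.0261 to 0.108, and those of unlike-numbered libraries at -0.105 to 0.0577. With 3 libraries in a group these values cannot exclude a pairing by replicate number. With a replicate block the counts were 19, 17, 27, 8, 18, 16, 24, 20 and 21. All other settings kept each count within 1.5 times. Without SP2-1 and SP3-2 together, 11 and 22 members were called for the steps in WXS (S), 19 over the stages and 24 in the interaction. No called member changed sign under another scaling, although leaving out TMM factors moved the all-gene median by 0.14 at P2 and by -0.11 at P4 and between P3 and P4 in WXS (F). BT1 and LOC_Os06g04200, with at most 11 and 87 counts in a library, are limited by depth.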
